A study of Mus musculus with 10 samples.

Results

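Sptssb and 9 further genes of sphingolipid synthesis were described in single RGCs (retinal ganglion cells, the neurons whose axons form the optic nerve) that were either uninjured or taken 2 weeks after ONC (optic nerve crush, which severs RGC axons). The 10 genes were chosen by name, with their injury change in these data already known. They are the serine palmitoyltransferase subunit genes Sptlc1, Sptlc2, Sptssa and Sptssb, the ceramide synthase genes Cers1, Cers2, Cers4, Cers5 and Cers6, and the desaturase gene Degs1. All 10 were found among the 34254 features of the files and all 10 passed the filter on low counts, which kept 14234 genes. Their injury values below are therefore a description. Where a threshold is named for them, it is the one used for all genes and is not read as a test of the members.

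Both groups were 12-week-old (P84) mice of both sexes, and no allele or agent other than ONC separated them in the labels. The study kept wild-type 129S1/SvImJ mice and Thy1-YFP reporter mice on that background, and the line that gave these libraries is not stated in the sources used here. RGCs were isolated by Thy1 immunopanning from pools of 10 retinas per batch, after macrophages (and, by the methods of the study, amacrine cells) had been depleted by panning, and 6000 cells per batch were loaded for 10x Genomics capture. The uninjured group held 6 libraries with 1683 cells and the injured group held 4 libraries with 1609 cells. The labels do not say whether each library is a separate pool of animals, or which pools shared a day. The spread between libraries therefore need not be the spread between separate pools.

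Sphingolipids are membrane lipids built on a long-chain amino alcohol, and they are abundant in neuronal membranes and myelin. Serine palmitoyltransferase makes the first intermediate from serine and a fatty acyl-CoA. Its catalytic core is formed by Sptlc1 and Sptlc2, and a small subunit, either Sptssa or Sptssb, raises its activity and sets which acyl-CoA it prefers, with Sptssb favouring longer chains. Ceramide synthases then attach a fatty acid whose length differs between the isoforms, and Degs1 adds the double bond that turns dihydroceramide into ceramide. A mouse mutation that raises the activity of Sptssb is known for degeneration of the brain and retina.

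Every cell carried UMIs of Tubb3, Rbpms, Sncg and Slc17a6, the 4 genes used to mark RGCs. Total UMIs (unique molecular identifiers, each counting 1 captured transcript) ranged from 2839693 to 23180399 per uninjured library and from 4698799 to 8860536 per injured library, and the median per cell was 20437 to 34337 and 11257 to 14695. Injured 3 and injured 4 shared 421 cell barcodes and were averaged to 1 sample (injured 3/4), which left 3 injured samples. UMIs of mCherry, a reporter that the labels do not mention, were found in 7.99% and 15.0% of cells of injured 1 and 2 and in 86.0% and 84.3% of cells of injured 3 and 4, and were 0 in every uninjured library. Among marker lists of other retinal cells, the summed level was higher in every injured sample for Müller glia (46.2 to 75.1 CPM uninjured and 121.1 to 154.3 CPM injured, 3 of 5 tested markers higher and 1 lower, with Vim at 0.337 to 2.76 and 34.6 to 44.7 CPM) and oligodendrocytes (10.7 to 17.3 and 18.0 to 21.5 CPM, 2 of 5 markers tested, neither past the threshold). It was lower for astrocytes (230.8 to 776.7 and 44.9 to 49.6 CPM, nearly all from Aldoc, with S100b at 3.37 to 26.1 and 2.69 to 4.27 CPM, Pax2 at 0.280 to 2.70 and 1.57 to 2.69 CPM and Gfap at most 0.449 CPM in any sample). Of the Müller glia list, Aqp4 was at most 1.88 CPM in any sample. The level used is CPM, the count scaled to a common total after TMM normalization. These are counts of transcript 3′ ends and are not divided by transcript length. The part of other retinal cells in the member values was not tested.

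Sptssb, the small subunit gene, lies on the minus strand at chr3:69726871-69780651 of mm39 with 3 exons in its canonical transcript, and its paralogous partner Sptssa lies on the minus strand at chr12:54692171-54703363 with 2 exons. Windows before the starts of their canonical transcripts are shown because the pair encodes alternative subunits of the same enzyme and had different levels after ONC. The 250 bases before the start of each canonical transcript (GENCODE M39) are printed 5′ to 3′ on the gene's strand, for Sptssb at chr3:69768729-69768978 and for Sptssa at chr12:54703359-54703608. The Sptssb window lies inside the annotated gene, whose outermost start on this strand is at 69780651. Sequence before that outermost start was not searched.
Sptssb: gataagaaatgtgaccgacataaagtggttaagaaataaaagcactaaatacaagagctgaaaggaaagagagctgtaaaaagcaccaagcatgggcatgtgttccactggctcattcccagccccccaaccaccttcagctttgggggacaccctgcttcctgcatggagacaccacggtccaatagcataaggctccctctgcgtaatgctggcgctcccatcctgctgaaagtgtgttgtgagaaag
Sptssa: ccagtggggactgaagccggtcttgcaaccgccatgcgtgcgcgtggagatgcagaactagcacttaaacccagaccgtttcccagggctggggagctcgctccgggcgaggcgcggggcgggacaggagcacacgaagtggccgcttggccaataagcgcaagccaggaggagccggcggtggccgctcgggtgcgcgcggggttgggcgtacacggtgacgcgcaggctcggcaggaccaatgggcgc
The GC content was 49.2% in the Sptssb window and 69.2% in the Sptssa window, against a median of 53.2% over 21738 protein-coding genes. Both strands were searched for the AP-1 motif TGANTCA, the cyclic AMP response element TGACGTCA, the C/EBP-ATF composite motif TGATGNAA and the E-box CACGTG, which were present in 6.18%, 1.70%, 3.39% and 6.27% of all such windows. None of these letters occurred in the windows of the members, except an E-box 23 bases before the canonical start of Cers2, so no base is capitalised above. The windows of Cers2, Cers4 and Cers5 also lie inside their annotated genes, so the search covers canonical starts alone.

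Sptssb was nearly absent from injured samples. In uninjured samples 1 to 6 its level was 133.4, 93.9, 37.5, 41.9, 55.7 and 65.9 CPM, from 291 to 1019 UMIs per sample. In injured 1, injured 2 and injured 3/4 it was 1.58, 1.12 and 1.07 CPM, from 9, 5 and 8 UMIs. The groups did not overlap, and uninjured 1 and 2 stood above the other 4 uninjured samples. The uninjured mean was 71.4 ± 36.5 CPM (SD, n = 6) and the injured mean 1.26 ± 0.277 CPM (SD, n = 3), a ratio of means of 56.8, and the fitted log2 fold change was -5.79 ± 0.56 (SE). Among the 5821 tested genes whose average log2 CPM reached 5, this was the 4th largest fall, after Chrna6 (log2 fold change -6.67), Irx4 (-5.82) and Necab2 (-5.81). In these summed counts, fewer cells of a type that holds Sptssb and less Sptssb RNA per cell cannot be told apart.

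The other 3 serine palmitoyltransferase genes differed little. Sptlc1, the gene of a core subunit, ranged from 15.4 to 23.2 CPM in uninjured samples and was 23.8, 21.6 and 25.8 CPM in the injured samples, with overlap and a log2 fold change of 0.23 ± 0.146 (SE). Sptlc2, the gene of the other core subunit, ranged from 41.7 to 58.0 CPM and was 48.0, 49.9 and 39.1 CPM after injury (-0.13 ± 0.144). Sptssa was 25.6, 26.9, 26.0, 22.6, 41.0 and 41.5 CPM in uninjured samples 1 to 6 and 29.9, 34.8 and 43.2 CPM in the injured samples (0.24 ± 0.218). Uninjured 5 and 6 were the high Sptssa samples and lay within the injured range, and among libraries 1 to 4 of each condition alone, with injured 3 and 4 kept separate, the log2 fold change was 0.59 ± 0.133 (SE) and past the threshold. Degs1 also overlapped between groups, at 56.8 to 88.1 CPM in uninjured and 64.3, 64.9 and 75.1 CPM in injured samples (-0.06 ± 0.167).

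The balance of the small subunit genes differed between conditions. Sptssb gave 83.9, 77.7, 59.0, 64.9, 57.6 and 61.4% of the UMIs of Sptssa and Sptssb together in uninjured samples 1 to 6, with exact 95% binomial intervals whose bounds lay between 53.3% and 87.1%. It gave 5.00% (2.31 to 9.28), 3.13% (1.02 to 7.14) and 2.42% (1.05 to 4.72) in the injured samples. The mean share was 67.4 ± 10.8% (SD, n = 6) and 3.52 ± 1.33% (SD, n = 3). These intervals, like the floors below, cover counting error only.

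**Figure D1:**
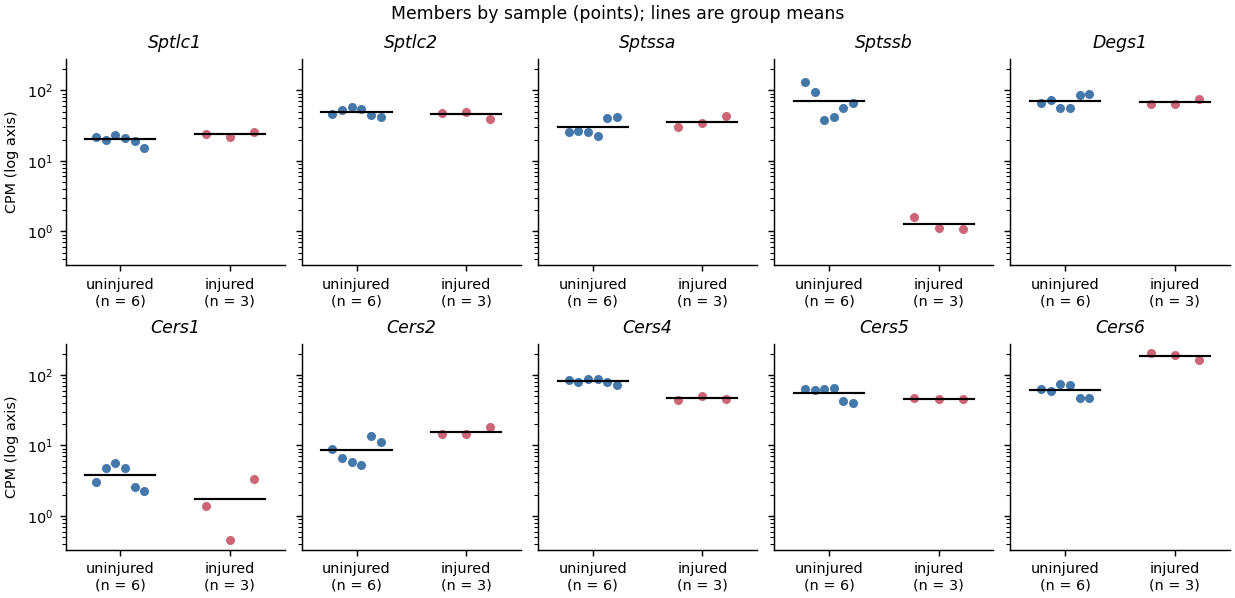
CPM of each of the 10 members on a log axis in 6 uninjured and 3 injured samples, with a point for each sample and a line at the group mean. Sptssb lay at 37.5 CPM or above in uninjured samples and at 1.58 CPM or below in injured samples, Cers6 was higher and Cers4 lower in every injured sample, and Sptlc1, Sptlc2, Sptssa, Degs1, Cers1 and Cers5 overlapped.

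Cers6, a ceramide synthase known for making ceramides with shorter, palmitoyl chains, was the member with the largest rise. It lies on the plus strand at chr2:68691455-68944627 of mm39. Its level was 63.0, 59.4, 75.3, 73.1, 46.5 and 47.6 CPM in uninjured samples 1 to 6 and 204.9, 191.8 and 163.0 CPM in the injured samples. Every injured sample lay above every uninjured sample, the ratio of means was 3.07, and the log2 fold change was 1.61 ± 0.168 (SE). Cers5, which has a similar chain preference, went from 39.4 to 65.3 CPM in uninjured samples to 47.6, 45.4 and 45.7 CPM, within the uninjured range (-0.28 ± 0.179). Only uninjured 5 and 6 (43.0 and 39.4 CPM) lay below the injured samples, and uninjured 1 to 4 had 61.1 to 65.3 CPM. Among libraries 1 to 4 of each condition alone, with injured 3 and 4 kept separate, the log2 fold change was -0.47 ± 0.077 (SE) and past the threshold.

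Cers4 was lower after ONC. Its level was 85.2, 78.5, 88.1, 88.3, 79.8 and 73.2 CPM in uninjured samples 1 to 6 and 44.1, 50.8 and 46.2 CPM in the injured samples, without overlap, and the log2 fold change was -0.81 ± 0.119 (SE). Cers2, known for very long chains and for its role in myelin, was 5.27 to 13.4 CPM in uninjured and 14.4, 14.4 and 18.1 CPM in injured samples, and the log2 fold change was 0.92 ± 0.283 (0.81 and not past the threshold without injured 3/4). Its nearest uninjured samples were uninjured 5 and 6, at 13.4 and 11.1 CPM, and 1212 exonic bases of Cers2 lie inside Setdb1 on the opposite strand. The summed level of the oligodendrocyte markers given above was also higher in the injured samples, although Mbp (7.17 to 14.4 CPM uninjured and 11.9 to 17.3 CPM injured) and Mog (0.0823 to 1.12 and 0.269 to 0.525 CPM) overlapped and Cldn11 was at most 2.27 and 0.225 CPM, and their part in the Cers2 values was not tested. Cers1, a ceramide synthase known from neurons, was low, at 2.27 to 5.56 CPM and at 1.40, 0.449 and 3.36 CPM (-1.09 ± 0.484), and without injured 3/4 its log2 fold change was -2.002 ± 0.555 and past the threshold. All 2831 exonic bases of Cers1 lie inside Gdf1 on the same strand, and Gdf1 had 0 UMIs in the files, so reads of these genes cannot be told apart and the Cers1 level is uncertain.

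By these values 2 members were called higher (Cers2 and Cers6), 2 lower (Sptssb and Cers4) and 6 not called by the edgeR threshold (adjusted p under 0.05), against 44.0% of all genes tested called, 21.3% higher and 22.7% lower. The members were chosen on this contrast, so nothing is read from their count. Their median log2 fold change was -0.09, and that of all genes tested was -0.03.

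The make-up of the ceramide synthase transcripts differed accordingly. Cers6 gave 28.6 ± 2.35% of the UMIs of the 5 genes in uninjured samples (SD, n = 6) and 62.6 ± 3.35% in injured samples (SD, n = 3). The share of Cers4 was 39.2 ± 2.73% and 15.9 ± 1.51%. Cers5 gave 26.3% and 15.6%, Cers2 gave 4.24% and 5.30%, and Cers1 gave 1.78% and 0.604%. Cers4 was the most frequent of the 5 in each uninjured sample and Cers6 in each injured sample, as counts of 3′ ends.

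**Figure D2:**
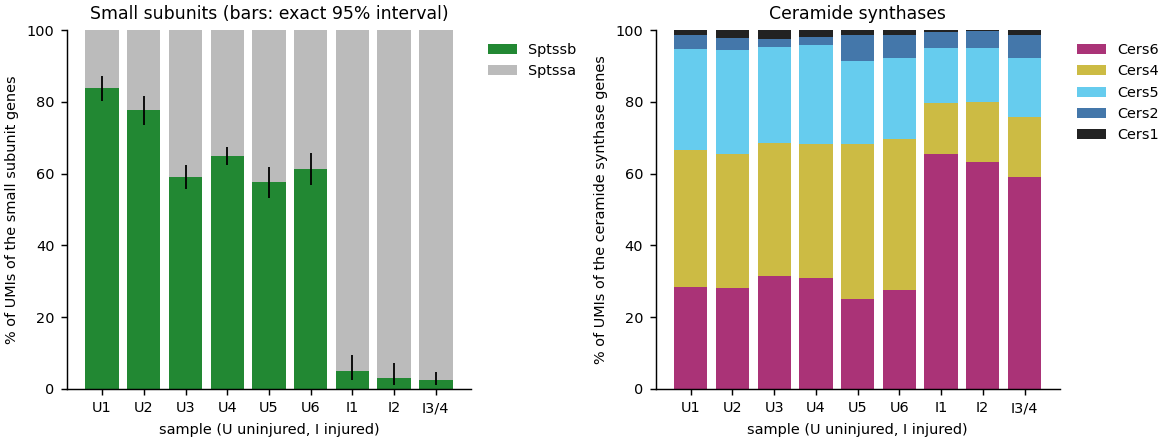
Left, Sptssb and Sptssa as percentages of their summed UMIs in 6 uninjured (U) and 3 injured (I) samples, with black lines for exact 95% binomial intervals of the Sptssb share. Right, the 5 ceramide synthase genes as percentages of their summed UMIs. The Sptssb share went from a mean of 67.4% to 3.52%, and the Cers6 share from 28.6% to 62.6%.

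Within uninjured retinas, Sptssb was unevenly spread over RGCs. For this comparison each cell was thinned at random to 8000 UMIs, which kept 1654 uninjured and 1376 injured cells, so that cells of different depth could be compared. Sptssb was found in 30.8 ± 11.7% of uninjured cells (SD, n = 6 libraries, range 21.9 to 52.6%) and in 1.32 ± 0.262% of injured cells (SD, n = 3). Without thinning the shares were 51.1 ± 9.81% and 2.03 ± 0.564%. No cell type outside RGCs was there to give a background share from free RNA. Among the RGCs with fewest Sptssb UMIs in uninjured libraries, described below, at the same depth of 8000 UMIs, 13 of 273 Foxp2 cells (4.76%, exact 95% interval 2.56 to 8.01%) and 1 of 51 Eomes cells over all 6 libraries (1.96%, 0.05 to 10.4%) had a Sptssb UMI. These libraries held far more Sptssb than the injured ones, so such shares do not bound the background there, and whether the injured UMIs come from expression or from free RNA cannot be told apart. In contrast, thinned Sptssa was found in 22.4 ± 4.40% and 24.3 ± 4.66% of cells, Cers6 in 36.7 ± 8.04% and 64.8 ± 2.30%, and Cers4 in 48.7 ± 5.07% and 30.1 ± 2.59%.

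The Fano factor (the variance of UMIs per cell over their mean, near 1 for random sampling of an even level) was 1.78 to 3.09 for Sptssb in the 6 uninjured libraries, 0.931 to 1.19 for Sptssa and 1.06 to 1.35 for Cers6. The tenth of cells with most Sptssb held 36.4 to 73.8% of its UMIs, and single cells reached 5 to 9 of 8000 UMIs. After ONC, among all deposited cells, 9, 5, 10 and 6 cells of injured 1 to 4 had a Sptssb UMI, with at most 2 UMIs in a cell, and 4 barcodes with Sptssb were shared by injured 3 and 4.

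**Figure D3:**
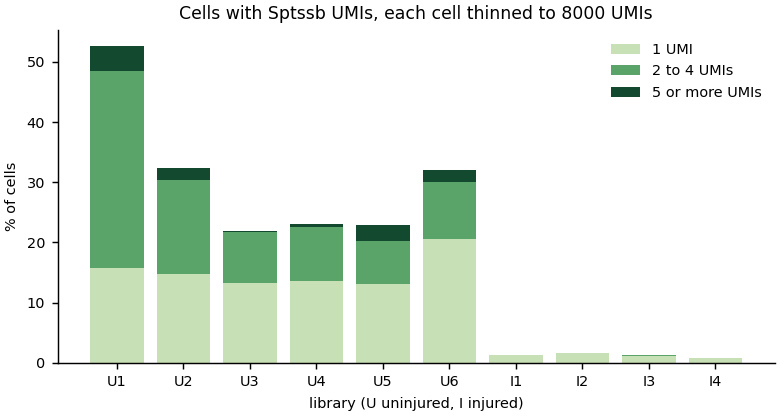
Percent of cells with 1, with 2 to 4 and with 5 or more Sptssb UMIs in each library, with every cell thinned to 8000 UMIs. Cells with a UMI made up 21.9 to 52.6% of uninjured libraries, and no injured library had a cell with more than 2 UMIs.

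To ask which RGCs held Sptssb before injury, its level was compared inside each uninjured library between cells with at least 2 UMIs of a subtype marker and all other cells, and the log2 ratios were tested over libraries with an exact two-sided sign-flip permutation test. Of 10 markers fixed for this test, 9 had enough cells (Kcng4 did not). Sptssb UMIs were few in cells with Foxp2, a transcription factor of F-type RGCs. Those cells had 0, 8.33, 6.05, 6.94, 7.81 and 0 CPM in uninjured 1 to 6, and the other cells 171.5, 94.8, 54.5, 57.2, 67.9 and 91.9 CPM in the same libraries. The mean log2 ratio was -3.59 ± 1.11 (SD, n = 6 libraries, 273 Foxp2 cells, lower in 6 of 6), with an exact p of 0.03125, the smallest that 6 libraries can give, and 0.14062 after Benjamini-Hochberg adjustment over the 9 markers. This test and those below took the libraries as independent. Some were alike, such as uninjured 5 and 6 in Sptssa (41.0 and 41.5 CPM). Fewer independent units would raise the smallest possible p. With similar uninjured libraries summed, the mean log2 ratio for Foxp2 cells was -3.67, without a p.

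Sptssb UMIs were also few in cells with Opn4, the melanopsin gene of intrinsically photosensitive RGCs. It had 0 UMIs in the Opn4 cells of 4 libraries, and 17.9 and 41.7 CPM in those of uninjured 5 and 6, against 47.9 to 171.5 CPM in other cells. The mean log2 ratio was -2.63 ± 1.48 (SD, n = 6 libraries, 51 cells, lower in 6 of 6, exact p = 0.03125, adjusted p = 0.14062). Its size rests on the 4 libraries with 0 UMIs, and it was -1.86 with 1 count added in place of 0.5 and -3.88 in cells not thinned. Cells with Eomes, a transcription factor shared with melanopsin RGCs, had 0 Sptssb UMIs in all 47 cells of 5 libraries, while other cells averaged 82.1 CPM (exact p = 0.0625, adjusted p = 0.14062). Neurod2 cells were lower in 5 of 5 libraries (4.95 CPM and 65.2 CPM in other cells, means of libraries, exact p = 0.0625, adjusted p = 0.14062) and Tfap2d cells in 4 of 4 (16.5 and 61.2 CPM, exact p = 0.125, adjusted p = 0.225).

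Cells with Cartpt, a peptide gene of direction-selective RGCs, held Sptssb on both sides of the level of other cells. Their values in uninjured 1 to 6 were 197.0, 102.7, 48.0, 57.3, 57.3 and 61.1 CPM, and those of other cells 133.1, 74.3, 45.2, 42.0, 62.1 and 91.5 CPM. The mean log2 ratio was 0.15 ± 0.441 (SD, n = 6 libraries, 597 cells, higher in 4 of 6, exact p = 0.5625, adjusted p = 0.63281), with a range over libraries from -0.58 to 0.57. Zic1 cells had a mean log2 ratio of -0.41 over 4 libraries (exact p = 0.875), which was 0.21 without uninjured 5. Tbr1 and Spp1 cells entered with 2 libraries each (-0.23 and -1.28, exact p = 0.5 for both). With 1 marker UMI in place of 2, Tbr1 cells entered with 5 libraries and were lower in 5 of 5, at -2.37 ± 1.36 (SD, exact p = 0.0625, adjusted p = 0.09375), so the Tbr1 value depends on this threshold. With these numbers of libraries the smallest adjusted p that the 9 tests could give was 0.09375, so an adjusted p of 0.05 was out of reach whatever the values, and 2 markers (Foxp2 and Opn4) had an unadjusted p under 0.05. With 1 marker UMI, Foxp2, Opn4, Eomes, Neurod2 and Tfap2d cells were each lower in 6 of 6 libraries, with an exact p of 0.03125 and an adjusted p of 0.05625. A ratio with 0 UMIs on a side depends on the 0.5 counts added to both sides. That Sptssb differed between the marker classes themselves was not tested.

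**Figure D4:**
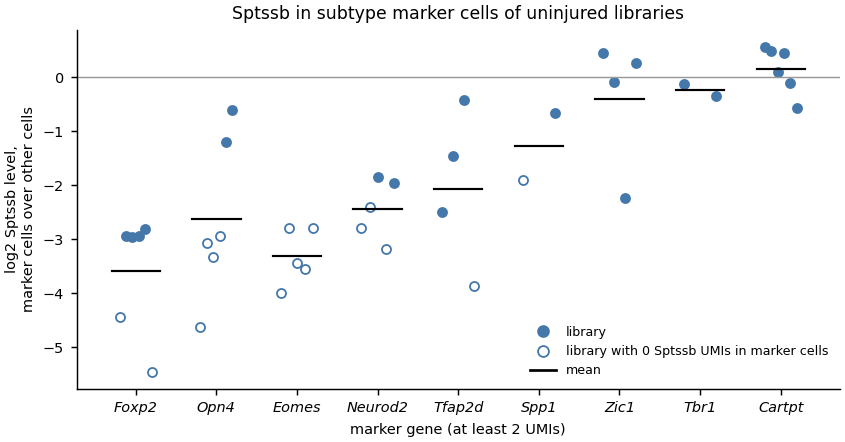
Log2 ratio of the Sptssb level in marker cells to that in the other cells of the same uninjured library, for 9 subtype markers, with a point for each library, open where the marker cells had 0 Sptssb UMIs, and a line at the mean. Foxp2, Opn4, Eomes, Neurod2 and Tfap2d cells lay below 0 in every library that entered, and Cartpt cells lay on both sides of 0.

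No Sptssb UMI was seen in the injured cells that met the same Cartpt threshold, which were 9, 9, 10 and 7 cells in injured 1 to 4. Cartpt itself was 176.9 to 946.8 CPM in uninjured and 31.7 to 50.0 CPM in injured samples, and cells past the threshold went from 27.5 to 44.0% of uninjured to 1.95 to 3.59% of injured cells, so these need not be the same kind of cell and no change within a class is read from them. The 28 cells of injured 1 to 3 allow up to 13.4 CPM (3 UMIs of 224000), and the Cartpt cells of uninjured libraries had 48.0 to 197.0 CPM. Foxp2 cells also had 0 Sptssb UMIs after ONC (71 cells of injured 1 to 3, which allow up to 5.28 CPM).

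Sptssa and Cers6 had other patterns over the same cells, given here without a test. In uninjured libraries the Sptssa level was higher in Opn4 cells than in other cells in 6 of 6 libraries, with a mean of 76.1 CPM and 30.4 CPM. Cers6 averaged 100.1 CPM in uninjured Foxp2 cells and 58.0 CPM in other cells, higher in 5 of 6 libraries. After ONC, Cers6 was 195.0, 273.4, 366.7 and 364.1 CPM in the Foxp2 cells of injured 1 to 4 and 178.4, 166.0, 148.8 and 149.2 CPM in other cells. In uninjured Opn4 cells Cers6 averaged 64.1 CPM and in other cells 63.2 CPM, higher in 5 of 6 libraries. After ONC it was 171.9, 125.0, 59.2 and 62.5 CPM in Opn4 cells, and 179.9, 175.0, 167.5 and 167.6 CPM in other cells. Foxp2 cells were thus on the high side and Opn4 cells on the low side for Cers6 in each injured library, of which injured 3 and 4 share cells. This was not particular to them. Spp1 cells (62.5 to 125.0 CPM) and Cartpt cells (107.1 to 166.7 CPM) also lay below other cells in each injured library. Eomes cells lay below in injured 2, 3 and 4 and above in injured 1. Tfap2d cells lay above in injured 1, 3 and 4 and below in injured 2. These directions rest on few cells. In injured 1 to 4 there were 25, 16, 30 and 23 Foxp2 cells and 8, 11, 19 and 16 Opn4 cells. Spp1 cells numbered 11, 6, 33 and 29, and Cartpt cells 9, 9, 10 and 7. Eomes cells numbered 3, 6, 11 and 9, and Tfap2d cells 11, 5, 22 and 18.

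Among genes whose average log2 CPM reached 5, the 5 whose level followed Sptssb most closely over the 9 samples were Ppp1r17 (root mean square difference of log2 profiles 0.261), Irx4 (0.456), Hpca (0.564), Pttg1 (0.627) and E130218I03Rik (0.691). Ppp1r17, a phosphatase inhibitor gene, had an uninjured mean of 75.3 ± 23.7 CPM (SD, n = 6) and an injured mean of 1.35 ± 0.126 CPM (SD, n = 3). Its cells were looked at after these values were seen. Cells with at least 2 Ppp1r17 UMIs were 11.5 to 21.6% of thinned uninjured cells and held 29.7 to 59.8% of the Sptssb UMIs. Sptssb was 114.1 to 218.8 CPM in these cells and 30.3 to 138.3 CPM in the other cells of the 6 uninjured libraries. The Ppp1r17 cells were higher in 6 of 6 libraries and Sptssb was present outside them too. Split in the same way, Irx4 and Hpca cells were higher in 6 of 6 libraries and Pttg1 cells in 3 of 6, and E130218I03Rik was in nearly every cell of some libraries (74.2 to 99.0% of cells), so that no direction is given for it, while cells with Chrna6 or Necab2, whose falls were of similar size, were higher in 1 of 6 libraries each. After ONC, 0, 0, 2 and 0 cells with Ppp1r17 at this level were found in injured 1 to 4.

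Injured cells were also compared by Atf3, an injury-induced transcription factor gene. Cells with at least 2 Atf3 UMIs held 3, 3, 3 and 3 Sptssb UMIs in injured 1 to 4, among 240, 193, 340 and 282 cells, and cells without Atf3 held 0, 1, 3 and 0 UMIs, among 39, 35, 69 and 46 cells. Sptssb was thus near 0 with and without Atf3, and 3 injured samples cannot reach a sign-flip p below 0.25. Cers4 was lower in the Atf3 cells of each library, at 41.7, 43.4, 43.8 and 36.4 CPM against 64.1, 50.0, 65.2 and 70.7 CPM. Cers6 was 191.1, 178.1, 156.2 and 162.7 CPM in Atf3 cells and 109.0, 175.0, 155.8 and 135.9 CPM in cells without it. In cells with mCherry, Cers6 was 183.3, 157.4, 137.6 and 140.9 CPM, below the 198.6, 186.2, 322.4 and 326.3 CPM of cells without it. The mCherry values come from all deposited cells, which were not thinned. There were 27, 41, 453 and 397 cells with mCherry and 311, 232, 74 and 74 without it.

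Sphingolipid genes beyond the members were counted in 7 lists of 75 genes, of which 67 were tested. Of these 14 were higher, 17 lower and 36 not called (46.3% called, against 44.0% of all genes tested, 21.3% higher and 22.7% lower), and their median log2 fold change was -0.04, close to that of all genes. Among regulators of the first steps, 2 of 5 tested genes were higher and the other 3 did not pass. Ormdl1 and Ormdl3, which encode inhibitors of serine palmitoyltransferase, had 14.5 and 36.1 CPM in uninjured and 25.2 and 64.5 CPM in injured samples (log2 fold changes 0.82 ± 0.179 and 0.84 ± 0.144 SE, adjusted p = 0.00288 and 0.000532). Ormdl2 (0.23, adjusted p = 0.324) and Kdsr, the reductase of the second step (0.12, adjusted p = 0.436), did not pass.

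In the sphingomyelin list 2 of 7 tested genes were higher and 1 lower. Sgms2, a sphingomyelin synthase gene, went from 7.86 to 19.5 CPM (log2 fold change 1.29 ± 0.162, adjusted p = 5.66e-05) and Samd8, of the same family, from 24.3 to 43.9 CPM (0.85 ± 0.123, adjusted p = 0.000169). Smpd3, the gene of neutral sphingomyelinase, fell from 100.1 to 42.5 CPM (-1.24 ± 0.153, adjusted p = 4.92e-05). Sgms1, the other synthase gene, had 52.6 and 46.0 CPM and did not pass (adjusted p = 0.41).

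Of 14 glycosphingolipid genes, 5 were lower and 1 higher. St8sia1, which makes the gangliosides of the b series, fell from 36.5 to 12.8 CPM (log2 fold change -1.53 ± 0.244, adjusted p = 0.000342), and St3gal5, the synthase of the simplest ganglioside, from 62.6 to 35.7 CPM (-0.81 ± 0.146, adjusted p = 0.000808). St8sia3 (-0.68, adjusted p = 0.0206) and B4galt5 (-0.58, adjusted p = 0.00497) also fell, as did Gal3st1 at a low level, and Plekha8, a glucosylceramide carrier gene, rose. Ugcg, which makes glucosylceramide, had 61.3 and 56.6 CPM and did not pass (adjusted p = 0.549). In the lysosomal list 2 of 13 were higher (Gla and Hexa) and 2 lower (Gba2, a glucosylceramidase that acts outside lysosomes, at -0.76 with an adjusted p of 0.00395, and Arsa).

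The genes of sphingosine phosphate turnover held the largest fall of the 7 lists. Sgpp2, a sphingosine phosphate phosphatase gene, went from 64.0 to 7.95 CPM (log2 fold change -2.99 ± 0.148 SE, adjusted p = 4.55e-08), and Sgpp1 from 42.3 to 19.4 CPM (-1.11 ± 0.167, adjusted p = 0.000213). Asah2, the neutral ceramidase gene, went from 11.3 to 2.34 CPM (-2.26 ± 0.366, adjusted p = 0.00039), and Acer2, an alkaline ceramidase gene, was lower at a low level. Cptp, a ceramide phosphate carrier gene, rose from 15.4 to 31.9 CPM (1.06 ± 0.278, adjusted p = 0.00874), and Aldh3a2 and Sphk1 were higher, which makes 3 higher and 4 lower of 12 tested. Spns2, the sphingosine phosphate exporter gene, went from 13.9 to 3.66 CPM (-1.90 ± 0.254, adjusted p = 9.45e-05), and the receptor gene S1pr2 was higher, so that 1 of 4 tested genes of that list was higher and 1 lower. Sphk1, a sphingosine kinase gene (0.462 and 5.24 CPM), and S1pr2 (0.269 and 4.12 CPM) were below the level set for naming values and are given after their values were seen.

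Of 12 tested genes of fatty acid elongation and hydroxylation, 3 were higher and 4 lower. Tecr, the reductase of the elongation cycle, fell from 962.3 to 337.6 CPM (log2 fold change -1.51 ± 0.287, adjusted p = 0.00121), Elovl6 from 163.7 to 74.9 CPM (-1.13 ± 0.134, adjusted p = 3.62e-05) and Hsd17b12 from 123.3 to 61.0 CPM (-1.02 ± 0.125, adjusted p = 4.69e-05), and Elovl5 was lower too. Elovl7 rose from 19.1 to 47.3 CPM (1.29 ± 0.177, adjusted p = 0.000114), and Hacd3 and the low Fa2h were higher. The called genes of each list went in both directions, except in the list of first steps. Of 26 alternative settings, Gla passed in 9, Plekha8 in 11, Aldh3a2 in 17, St8sia3 in 20 and Hexa in 21, and Acer2 passed in 15 of the 23 that tested it.

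**Figure D5:**
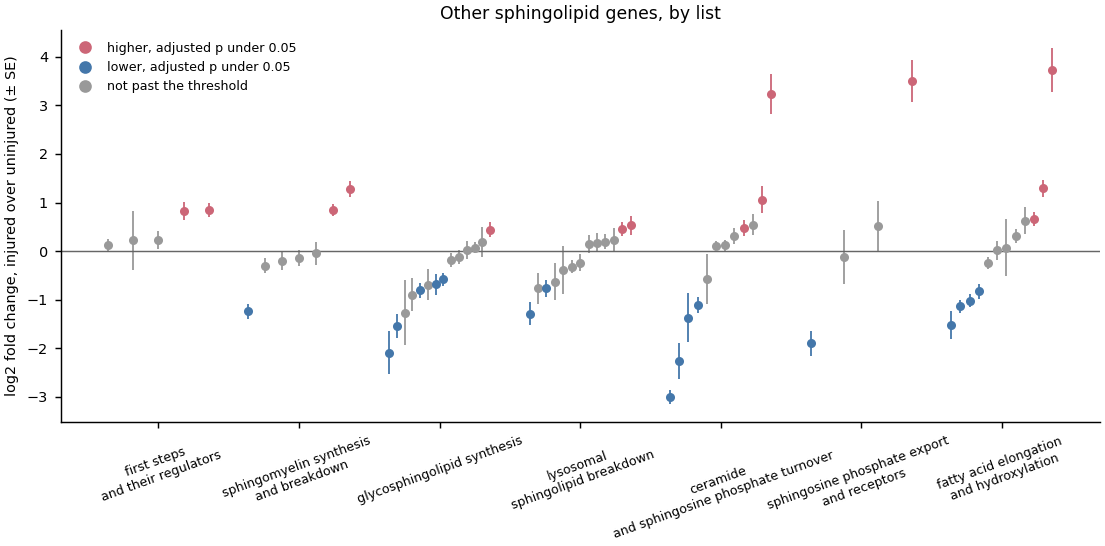
Log2 fold change of injured over uninjured samples with its SE for the 67 tested genes of 7 sphingolipid lists that are not members, coloured by direction where the adjusted p was under 0.05. Sgpp2 was the lowest point at -2.99, and the 3 points above 3 (Sphk1, S1pr2 and Fa2h) are genes of low level.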

How the data were processed

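RGCs of 6 uninjured and 4 injured libraries were analysed. The authors aligned reads to mm39 with Cell Ranger 7.0.1 (per the labels), kept the cells they identified as RGCs, and deposited UMI counts for each cell that were not normalized. The paper and the labels differ on the 10x kit, the sequencer and the Cell Ranger version, and the use of strand in counting is not given in the sources used here. The limits of the study (500 genes or more, up to 20% mitochondrial UMIs, up to 150000 UMIs) were met by every deposited cell. Doublets were not called, since the authors' limit on UMIs had been applied before deposit.

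Counts were summed per library (Python 3.11.15, numpy 2.4.6, scipy 1.17.1, pandas 2.3.3). Injured 3 and 4 were averaged, with rounding. The 9 samples were fitted over all genes with edgeR 4.0.16 in R 4.3.3 (filterByExpr, TMM factors, robust quasi-likelihood test) on condition alone, and p-values were adjusted by Benjamini-Hochberg over the 14234 genes tested. The script was tested on simulated data. The p-values measure the spread between these samples, which the fit took as independent. Whether each sample is a separate pool of animals is not stated in the sources used here. Alternatives were DESeq2 1.42.0, limma-voom (limma 3.58.1), other scalings, filters, cells and samples, and each library left out. Subtype cells were compared in cells thinned to 8000 UMIs, in libraries with at least 5 marker cells, with 0.5 counts added to both sides. Floors are 3 counts.

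The members and lists were chosen with earlier results of these data known. All members were named, with each listed gene past the threshold. Values were given for at most 4 genes per list whose average log2 CPM reached 3, and always for Ormdl1, Ormdl2, Ormdl3 and Kdsr. Values of genes that did not pass (Sgms1 and Ugcg) were added after they were seen. The 5 genes most like Sptssb were named from profiles centred on the uninjured mean. Gene positions and upstream sequence came from GENCODE M39 and GRCm39, the same assembly as mm39. Protein sequences were not used here.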

Additional observations from a re-analysis of the deposited data

Results flagged for a closer look

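Aldh3a2, which encodes the fatty aldehyde dehydrogenase that clears an end product of sphingosine phosphate, had an uninjured sample away from the others. Its lowest uninjured sample, at 10.4 CPM, was separated from the next by 0.667 of the range of the group, whose highest sample was 16.9 CPM. How often a gap of this relative size is met by chance in such a group was not tested. Every injured sample (18.2 to 22.4 CPM) lay above every uninjured one.

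UMIs of mCherry, which no label mentions, numbered 472, 1614, 19080 and 12841 in injured 1, 2, 3 and 4 and 0 in the 6 uninjured libraries. In injured 3 and 4 most cells carried it, and all injured values of the members come from libraries with it.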

How the results depend on the processing

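The log2 fold change of Sptssb lay between -6.02 and -5.32 in 25 alternative settings, and Sptssb could not be fitted when at least 10 counts were asked of every sample. Cers4 (-0.88 to -0.76) and Cers6 (1.28 to 1.72) kept their direction in 26 settings, and Cers2 (0.81 to 1.37) did too, although Cers2 no longer passed the threshold without injured 3 and 4 (0.81) or with similar libraries summed (0.94). Sptlc1 (-0.07 to 0.30), Sptlc2 (-0.31 to 0.11) and Degs1 (-0.15 to 0.16) took both signs. In cells where Malat1 gave 3 to 5% of UMIs, Sptssa reached 0.89, and it passed the threshold there, with limma-voom (0.39) and among libraries 1 to 4 (0.59, and 0.60 with the replicate block). Cers1 passed in 4 of 23 settings (-2.002 without injured 3 and 4, -1.93 with limma-voom, -1.06 and -1.04 among libraries 1 to 4), Cers5 in 3 of 26 and Sptlc2 in 1 of 26. In the Malat1-matched cells 3528 genes were called in place of 6256, and 17 sphingolipid genes in place of 31. The cause was not tested, and fewer cells enter this setting, with 7 and 8 cells of uninjured 5 and 6. With similar libraries summed, 4181 genes and 24 sphingolipid genes were called. The median percent of UMIs from Malat1 was 1.72 to 4.82 in uninjured and 6.37 to 7.78 in injured libraries. The median log2 fold change of all genes moved from -0.03 to -0.13 with DESeq2 and to -0.17 without a filter on low counts. Library numbers did not pair the samples (correlations of same-numbered libraries -0.06 to 0.01). Among libraries 1 to 4, the replicate block gave -5.79 for Sptssb and 7782 genes called, and the same libraries without the block gave -5.88 and 8230 genes. The subtype tests could reach an adjusted p of 0.05 only with 1 marker UMI or with cells not thinned (smallest possible 0.04688), and there Foxp2, Opn4, Eomes, Neurod2 and Tfap2d cells came to 0.05625 (exact permutation tests). Tbr1 cells went from -0.23 to -2.37 and -1.54 in these settings, and Zic1 cells from -0.41 to -0.31 and 0.16. With 5 to 9 Sptssb UMIs per injured sample, the injured level is known only to its order.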
